A study of Mus musculus with 24 samples.

Results

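The 10 genes described here encode interleukin receptor chains that B lymphoma cells can use to read cytokines of T cells and other immune cells. They were chosen by gene symbol, with earlier results of these data known: Il2rg, Il9r, Il21r, Il4ra, Il27ra, Il6st, Il10ra, Il10rb, Il1r1 and Il17ra. All 10 have a row among the 11140 genes of the deposited count table, and all 10 passed the filter on low counts, which kept 11020 genes. The libraries were made from RNA of splenic B lymphoma cells of C57BL/6 mice carrying 1 Bcl6 transgene allele (Bcl6Tg/+). Bcl6 is a repressor that holds B cells in the germinal centre programme. The 12 T cell sufficient lymphomas had this genotype alone. The 11 T cell deficient lymphomas came from mice that also lacked CD3 epsilon (Bcl6Tg/+CD3Epsilon-/-), which T cells need to develop. All mice thus carried the transgene. Which promoter drives it, and the ages of the mice, the sources used here do not give. Means are given ± SD over the 12 sufficient or the 11 deficient lymphomas unless another n is stated. The comparison addresses how lymphomas that arose without T cells differ from those that arose with them.

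An interleukin receptor is built from chains that share partners. The common gamma chain, encoded by Il2rg, pairs with the specific chains for interleukins 4, 9 and 21, and signals through the kinases JAK1 and JAK3 to STAT factors. IL-4, IL-9 and IL-21 are made mainly by T helper cells, and IL-21 and IL-4 drive germinal centre B cells. The IL-6 family shares the chain gp130, encoded by Il6st, which also serves IL-27 together with the product of Il27ra. IL-10 binds a pair of chains encoded by Il10ra and Il10rb. The receptors for IL-1 and IL-17 belong to other families and signal through adaptors to NF-kappa B.

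Libraries fall into 2 labelled batches, called runs here. Run 1 held 7 sufficient and 5 deficient lymphomas, and run 2 held 5 and 6. Total counts ran from 7576034 to 30607005 per library, so that 3 counts, the floor used here, are worth 0.102 to 0.406 CPM (counts relative to the library total, scaled by TMM). This floor covers counting error alone. The 7 B cell markers examined, among them Cd79a and Pax5, summed to 4494 to 9659 CPM in sufficient and 3140 to 7830 CPM in deficient libraries, of which 3 were called lower (Cd79a, Cd79b and Cd22) and 0 higher in the deficient group. Cd3e, a defining T cell marker and the gene deleted in the deficient mice, lay at 0 to 2.46 CPM in sufficient and 0.721 to 5.77 CPM in deficient libraries, and since the deleted segment is not known here, this transcript is no check of the genotype. Plasma cell markers (5 of 7 with a row) summed to 795 to 4055 and 984 to 3381 CPM, with Sdc1 lower, and erythroid markers (7 of 8) to 115 to 382 and 203 to 394 CPM, with Tfrc higher. Xist and Y-linked transcripts occurred together in 3 T cell sufficient libraries of run 2 (9, 10 and 11). Calls lost without them are given beside each result for the chains and the other named genes, but not for the markers of cell types. Y-linked transcripts with little Xist (up to 5.64 CPM) marked deficient libraries 1, 3, 4, 6, 7, 8, 9 and 11 (162 to 461 CPM). They also marked sufficient libraries 4, 5 and 7 (58.8 to 210 CPM), and library 6 less so (15.0 CPM). The groups thus differ in these transcripts. The labels number the lymphomas without saying that each came from its own mouse. The p-values measure the spread between these samples.

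The 10 genes lie on 9 chromosomes (GRCm38, GENCODE M21). Il1r1 spans 40225080 to 40317257 on chromosome 1, and Il9r spans 32187541 to 32200279 on chromosome 11. Il4ra (125552120 to 125579474) and Il21r (125603429 to 125633570) are neighbours on chromosome 7, on the same strand and 24.0 kb apart. Il2rg is X-linked (101264378 to 101268255). Il10ra on chromosome 9 lies 244.2 kb from Cd3e. Promoters, taken as 250 bases before to 50 bases after a RefSeq transcript start (GRCm38.p6), could be matched for 6 of the 10 genes. Those of Il1r1 and Il9r are shown because these chains differed most between the groups, and those of Il21r and Il4ra because these neighbours differed from each other in their change. Sequences run 5′ to 3′ on the gene's strand, and capitals mark CG dinucleotides.
Il1r1, chr1:40224830-40225129, plus strand: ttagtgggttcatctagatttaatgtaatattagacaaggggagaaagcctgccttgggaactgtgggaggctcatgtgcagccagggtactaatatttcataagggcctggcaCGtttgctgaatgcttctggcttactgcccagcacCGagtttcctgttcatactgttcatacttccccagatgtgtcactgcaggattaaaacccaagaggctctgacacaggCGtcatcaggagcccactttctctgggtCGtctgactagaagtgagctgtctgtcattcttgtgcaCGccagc
Il1r1, a second start, chr1:40266336-40266635, plus strand: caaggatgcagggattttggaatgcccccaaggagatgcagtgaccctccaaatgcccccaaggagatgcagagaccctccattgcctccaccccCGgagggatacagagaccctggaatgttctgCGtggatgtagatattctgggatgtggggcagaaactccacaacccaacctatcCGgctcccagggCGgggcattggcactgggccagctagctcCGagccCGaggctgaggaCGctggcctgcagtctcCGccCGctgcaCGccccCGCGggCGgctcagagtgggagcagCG
Il9r, chr11:32200230-32200529, minus strand: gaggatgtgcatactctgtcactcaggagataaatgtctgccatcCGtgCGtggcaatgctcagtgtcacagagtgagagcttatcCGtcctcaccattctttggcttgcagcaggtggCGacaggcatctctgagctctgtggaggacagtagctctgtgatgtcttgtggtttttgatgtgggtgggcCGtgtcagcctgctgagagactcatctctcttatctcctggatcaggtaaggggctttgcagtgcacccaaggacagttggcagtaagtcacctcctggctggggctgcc
Il21r, chr7:125603179-125603478, plus strand: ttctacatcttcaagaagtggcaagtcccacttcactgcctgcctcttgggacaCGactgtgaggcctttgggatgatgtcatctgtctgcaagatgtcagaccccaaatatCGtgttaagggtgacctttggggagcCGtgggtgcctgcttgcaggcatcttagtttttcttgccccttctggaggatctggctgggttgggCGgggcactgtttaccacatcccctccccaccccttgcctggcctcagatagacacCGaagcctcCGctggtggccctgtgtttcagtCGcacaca
Il4ra, chr7:125552021-125552320, plus strand: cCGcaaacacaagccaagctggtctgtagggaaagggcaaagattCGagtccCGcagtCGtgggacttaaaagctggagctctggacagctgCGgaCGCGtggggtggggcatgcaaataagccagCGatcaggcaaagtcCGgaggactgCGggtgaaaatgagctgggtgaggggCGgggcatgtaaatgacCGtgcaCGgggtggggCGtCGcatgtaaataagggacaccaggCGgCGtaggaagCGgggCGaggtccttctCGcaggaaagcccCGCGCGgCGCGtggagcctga

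CG dinucleotides were few at Il9r (5), the first start of Il1r1 (5) and Il21r (7). They were more frequent at the second start of Il1r1 (14) and at Il4ra (25). The other matched promoters held 3 (Il2rg) and 33 (Il6st). The median was 21 over the 8551 genes with a row and a promoter in the table, with quartiles of 14 and 29, taking the first listed start of each gene. Promoters were searched for the STAT motif TTCNNNGAA, for the STAT6 motif, which has 1 more unspecified base, and for TATAAA. The first pair read the same on either strand, and TATAAA was searched on both. None of the 7 promoters of the 6 genes held any of them, while 6.98%, 5.20% and 6.50% of the 8551 promoters did.

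Of the 10 chains, 2 rose and 4 fell in T cell deficient lymphomas, and 4 did not pass the test. Calls are those of edgeR's quasi-likelihood fit of group and run, with Benjamini-Hochberg adjustment over 11020 genes and an adjusted p under 0.05 as the threshold. Il1r1 and Il21r rose. Il9r, Il2rg, Il27ra and Il6st fell. Across all genes tested 22.2% were called, 10.6% of all genes as higher and 11.7% as lower. The shares of 6 of 10 called, 2 of 10 higher and 4 of 10 lower are above these. The chains were chosen with earlier results of these data known, so these shares are a description and no test of enrichment. Over all genes 1163 were higher and 1285 lower, against 1608 and 1027 when scaled by library totals alone. The median log2 fold change of the chains was -0.32, against -0.01 over all genes tested. In the authors' deposited table the same 6 chains had an adjusted p under 0.05, with the same signs. In these bulk samples, fewer cells that express a gene and less of its RNA per cell cannot be told apart.

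**Figure D1:**
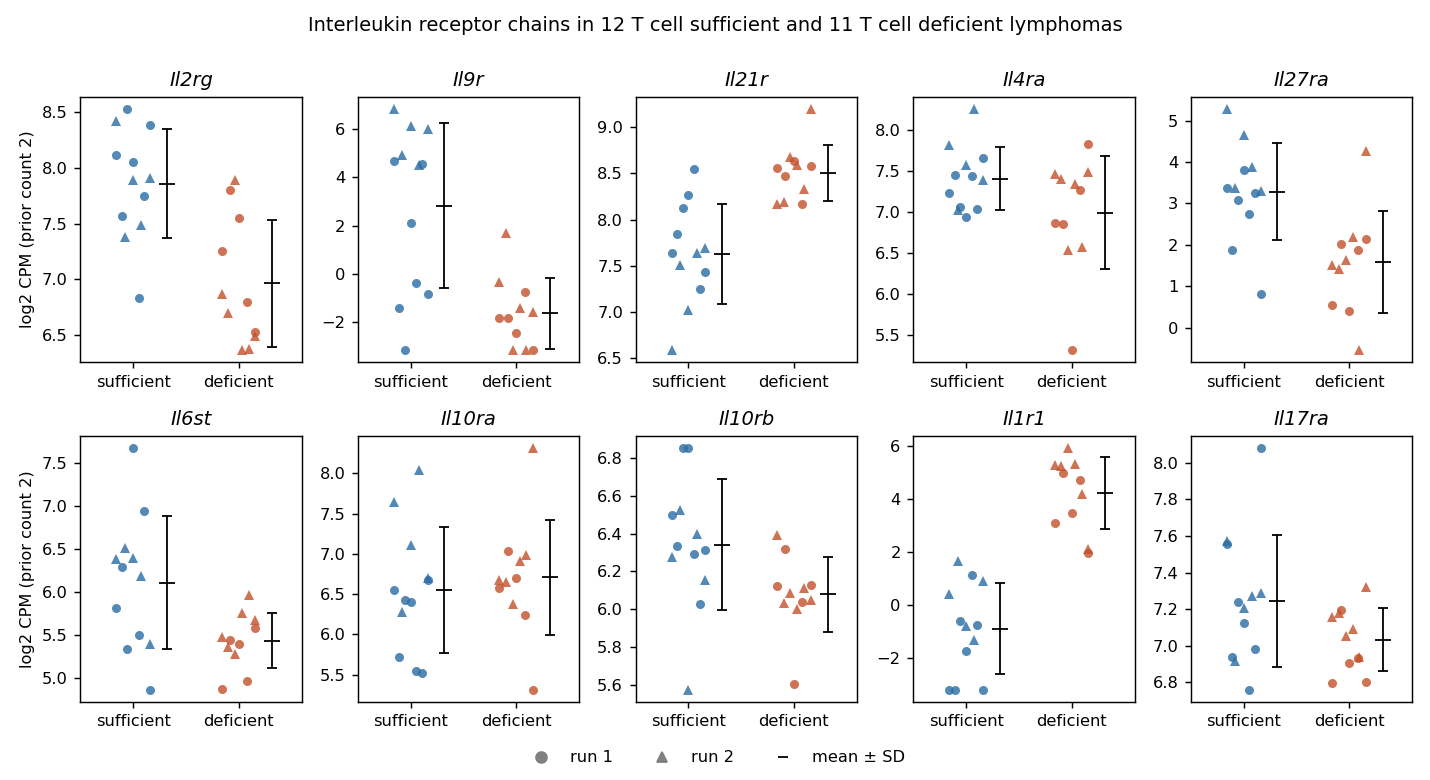
Log2 CPM (prior count 2) of the 10 receptor chains in each library, with circles for run 1, triangles for run 2, and a black bar for the group mean ± SD. Il1r1 separates the groups completely, Il21r nearly so, and Il9r in 8 sufficient libraries lies above all 11 deficient ones.

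Among the chains of the common gamma family, Il21r, the specific chain for IL-21, was the one that rose. It ranged from 96.0 to 375 CPM with a median of 199 in sufficient lymphomas, and from 287 to 588 CPM with a median of 377 in deficient lymphomas. Of the 12 sufficient libraries, 10 lay below every deficient one, the other 2 being libraries 4 (308 CPM) and 5 (375 CPM). The log2 fold change was 0.88 ± 0.18 SE (edgeR adjusted p = 0.00204), a 1.84-fold rise. In run 2 the groups did not overlap, at 96.0 to 206 CPM in sufficient and 288 to 588 CPM in deficient lymphomas. In run 1 they did, at 152 to 375 and 287 to 397 CPM. An exact two-sided permutation test on log2 CPM gave p = 0.00433 in run 2, the smallest that the 462 splits of its libraries allow, and p = 0.0227 in run 1. Adjusted over the 20 within-run tests of the 10 chains, these were 0.0216 and 0.0649.

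Il2rg, the common gamma chain that partners the IL-21 chain, moved the other way. It ranged from 114 to 369 CPM with a median of 238 in sufficient lymphomas and from 82.3 to 238 CPM with a median of 111 in deficient lymphomas. The groups overlapped, although 6 of 11 deficient libraries had less than any sufficient one and 6 of 12 sufficient libraries more than any deficient one. The log2 fold change was -0.84 ± 0.22 SE (edgeR adjusted p = 0.00894), a 1.79-fold fall. Both runs had the same direction, with means of 252 against 153 CPM in run 1 and 233 against 119 CPM in run 2. Neither exact permutation test within a run passed after adjustment (adjusted p = 0.110 and 0.0577).

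Set per length, the balance of the IL-21 receptor chains differed in order between the groups. CPM per kilobase of exon averaged 102 ± 32.4 (SD, n = 12) for Il2rg and 63.4 ± 23.5 for Il21r in sufficient lymphomas. In deficient lymphomas they averaged 56.4 ± 23.9 (SD, n = 11) for Il2rg and 112 ± 25.6 for Il21r. Within a library, the ratio of Il21r to Il2rg per length ranged from 0.201 to 2.37 with a median of 0.580 in the sufficient group. It ranged from 1.14 to 4.69 with a median of 1.86 in the deficient group. It was above 1 in all 11 deficient libraries and in 1 of 12 sufficient ones, library 5. This ratio combines the differences of both genes and was given no test of its own.

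Il9r, the specific chain of the receptor for IL-9, a T helper and innate lymphoid cytokine, fell the furthest of the 10 chains. It ranged from 0 to 115 CPM with a median of 23.2 in sufficient lymphomas and from 0 to 3.11 CPM with a median of 0.170 in deficient lymphomas. Of the 12 sufficient libraries, 8 lay above every deficient one. In the other 4, all of run 1 (libraries 2, 3, 5 and 7), it was at 0 to 0.662 CPM, the level of the deficient group. Run 1 thus held sufficient lymphomas at both levels. The log2 fold change of the edgeR fit was -5.95 ± 1.01 SE (adjusted p = 0.000684), with a wide 95% interval of -7.94 to -3.97, and it was -6.64 without deficient library 2. In run 2 all 5 sufficient libraries (22.9 to 115 CPM) lay above all 6 deficient ones (0 to 3.11 CPM; exact two-sided permutation p = 0.00433, adjusted p = 0.0216). In run 1 the same test gave an adjusted p of 0.114, with means of 7.76 CPM ± 11.5 (SD, n = 7) and 0.177 CPM ± 0.182 (SD, n = 5). Il9r was also higher in run 2 than in run 1 with group as a term (log2 fold change 2.57 ± 0.87 SE, edgeR adjusted p = 0.0243). The count table holds only genes with at least 7 libraries over 1 CPM. Among deficient libraries only library 2 exceeded 1 CPM of Il9r, so having a row depended on sufficient libraries. The direction of its difference is thus partly set by this filter.

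Il4ra, the chain for IL-4 and IL-13, did not pass the test. It averaged 175 ± 51.6 CPM in sufficient and 139 ± 52.2 CPM in deficient lymphomas. Its log2 fold change was -0.36 ± 0.21 SE (edgeR adjusted p = 0.209), a 95% interval of -0.77 to 0.04. The deficient lymphomas were the more varied here, from 39.8 CPM in library 9 to 227 CPM in library 11, and 5 of 11 lay below every sufficient library. Its neighbour Il21r has an interval of 0.53 to 1.23, which does not overlap that of Il4ra.

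**Figure D2:**
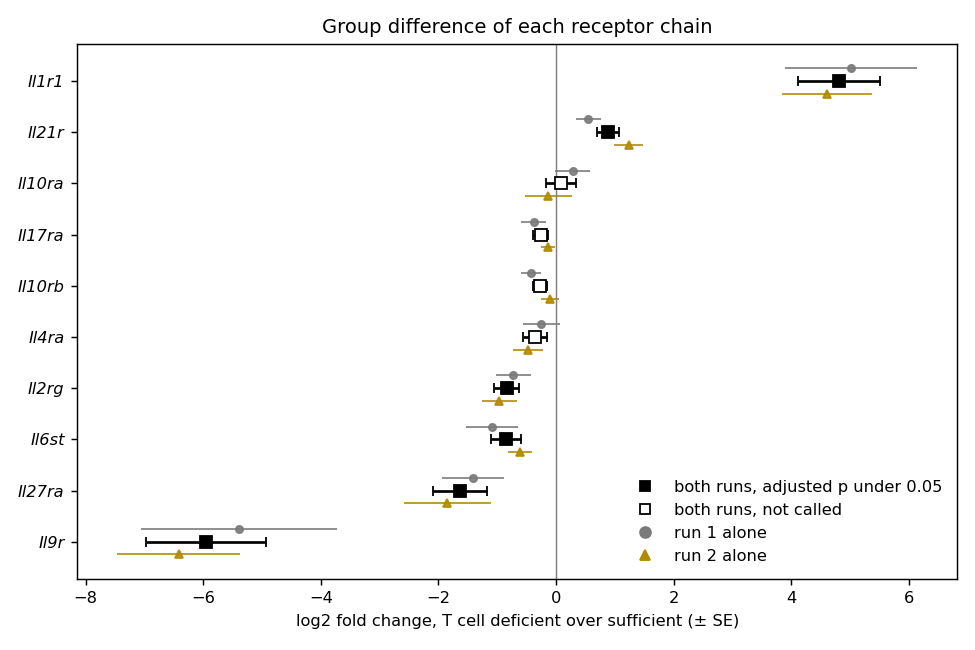
Log2 fold change of T cell deficient over sufficient lymphomas for each chain (± SE) from edgeR fits over both runs (squares, filled where the adjusted p is under 0.05) and within run 1 (circles) and run 2 (triangles). Il1r1 at 4.81 and Il9r at -5.95 stand at the ends, and 9 of 10 chains have the same sign in both runs.

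Il27ra and Il6st, the chains of the IL-27 receptor, both fell. The specific chain of the IL-6 receptor, Il6ra, did not pass, at means of 75.6 and 117 CPM (log2 fold change 0.58, edgeR adjusted p = 0.219). Il27ra ranged from 1.65 to 38.9 CPM with a median of 9.94 in sufficient lymphomas and from 0.573 to 19.3 CPM with a median of 3.01 in deficient lymphomas. Library 6 held the deficient maximum, and the other 10 deficient libraries lay at or below 4.42 CPM. The log2 fold change was -1.63 ± 0.46 SE (edgeR adjusted p = 0.0151), a 3.09-fold fall. Il6st ranged from 29.2 to 203 CPM with a median of 75.4 in sufficient lymphomas and from 29.3 to 62.7 CPM with a median of 43.4 in deficient lymphomas. Here 7 of 12 sufficient libraries lay above every deficient one. Its log2 fold change was -0.86 ± 0.26 SE (edgeR adjusted p = 0.0216). Without sufficient libraries 9, 10 and 11, Il6st had a log2 fold change of -0.85 and an adjusted p of 0.0836. Sufficient library 4 had 203 CPM of Il6st, and the next highest was library 6 with 122 CPM. The highest sufficient value was 6.97 times the lowest, against 2.14 times in the deficient group.

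Myeloid cells also use these chains, and markers of monocytes and macrophages were measured beside them. Of 19 such markers, 18 had a row, of which 6 were called lower, 0 higher and 12 not. Across all genes tested 11.7% were called lower. The summed level of these markers ran from 605 to 4084 CPM in sufficient and from 345 to 1261 CPM in deficient libraries. Lyz2, a lysozyme of myeloid cells, averaged 153 ± 168 CPM against 38.5 ± 32.9 CPM. Their part in the falls of Il27ra and Il6st was not tested. Of 15 T cell markers, 9 had a row, with sums of 252 to 881 and 213 to 1645 CPM, of which Zap70 was called higher and Cd2 lower. Lck and Cd2 made up most of the sum in the sufficient group, with medians of 333 and 167 CPM. In the deficient group Lck, Zap70 and Cd2 had the highest medians, at 445, 93.0 and 69.9 CPM. Zap70 had a median of 0.951 CPM in the sufficient group and reached 129 CPM there and 754 CPM in the deficient group. Sufficient and deficient medians were 0.874 and 1.82 CPM for Cd3e, 2.87 and 0.933 CPM for Cd3g, 1.20 and 1.74 CPM for Cd4 and 1.34 and 0.818 CPM for Cd28. Those of Cd5 were 14.4 and 7.74 CPM. Cd8b1 had medians of 1.67 and 0.496 CPM and reached 45.2 and 78.7 CPM. The part of T cells in these results was not tested.

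Neither chain of the IL-10 receptor passed the test. Il10ra, the specific chain, averaged 108 ± 64.9 CPM in sufficient and 118 ± 71.2 CPM in deficient lymphomas (log2 fold change 0.08 ± 0.25 SE, edgeR adjusted p = 0.844). Its interval of -0.42 to 0.58 leaves room for a change of either sign. It was higher in run 2 than in run 1 (log2 fold change 0.89 ± 0.25 SE, edgeR adjusted p = 0.00814), as was Il27ra (1.15 ± 0.45 SE, adjusted p = 0.0481). With Il9r, 3 of 10 chains thus differed between the runs, where 36.3% of all genes did. Il10rb, the accessory chain that also serves IL-22 and interferon lambda, averaged 83.0 ± 19.1 CPM and 68.0 ± 8.97 CPM. Its log2 fold change was -0.27 ± 0.12 SE (edgeR adjusted p = 0.108). It passed when sufficient library 10 was left out (log2 fold change -0.33, adjusted p = 0.0314).

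Il1r1, the signalling receptor for IL-1, rose the most of the 10 chains, from a level near the floor. It ranged from 0 to 3.03 CPM with a median of 0.477 in sufficient lymphomas, with 0 counts in libraries 1, 2 and 7. In deficient lymphomas it ranged from 3.80 to 59.9 CPM with a median of 25.7. Every deficient library exceeded every sufficient one, as for 1 of 10 chains and 0.0907% of all genes tested. The reverse held for 0 chains and 0.0726% of genes, and either for 0.163%. The log2 fold change was 4.81 ± 0.69 SE (edgeR adjusted p = 0.00019). The groups were also apart within each run, as were 1.81% of all genes in run 1 and 8.40% in run 2. The exact two-sided permutation p was 0.00253 in run 1 and 0.00433 in run 2, the smallest that 792 and 462 splits allow, and both were 0.0216 after adjustment. Within the deficient group the level spread 15.8-fold, with libraries 6 (4.15 CPM) and 11 (3.80 CPM) at the low end and library 3 at the top.

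Il17ra, the shared receptor chain for IL-17 cytokines, did not pass the test, at 156 ± 44.0 CPM in sufficient and 132 ± 15.7 CPM in deficient lymphomas. The log2 fold change was -0.26 ± 0.13 SE (edgeR unadjusted p = 0.0516, adjusted p = 0.141). Its interval of -0.51 to -0.01 is slightly narrower than the test implies. Its level was the most even of the 10 in the deficient group, with an SD of 11.9% of the mean, against 28.1% in the sufficient group. Sufficient library 7 held the maximum of 271 CPM.

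Markers of other cells known to carry IL-1 receptors were measured beside Il1r1. Of 13 neutrophil markers, 6 had a row and 4 were tested, of which 0 were called by edgeR and 0 had an unadjusted p under 0.05, with sums of 0.925 to 87.9 CPM in sufficient and 2.01 to 178 CPM in deficient libraries. Of 12 stromal and endothelial markers, 4 had a row, with sums of 30.3 to 259 CPM and 24.4 to 163 CPM, of which Col1a1 and Kdr were called lower. Of 11 mast cell and basophil markers, 2 had a row, Kit and Hdc, with sums of 0.812 to 22.3 CPM and 1.55 to 50.3 CPM, of which Kit was called higher. Of 9 natural killer cell markers, 3 had a row, with sums of 0.660 to 22.1 CPM and 1.20 to 16.7 CPM, of which Klrb1c was called higher. Their part in the rise of Il1r1 was not tested.

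**Figure D3:**
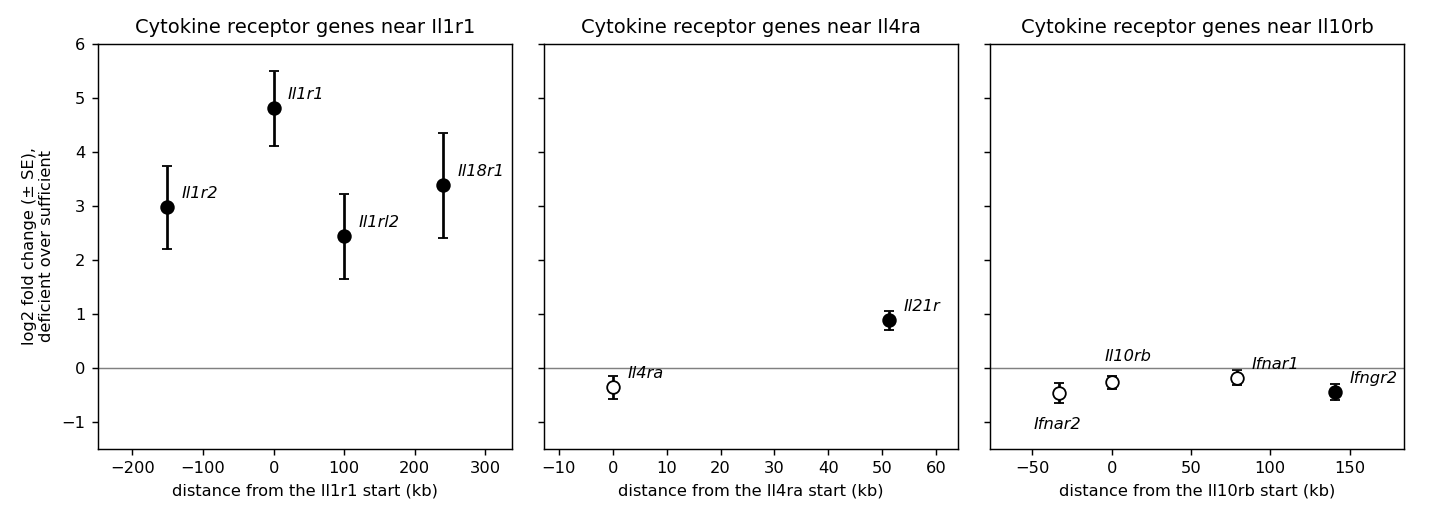
Log2 fold change (± SE) of cytokine receptor genes within 200 kb of Il1r1, Il4ra and Il10rb, plotted at the distance of their start from that of the named chain, with filled points for an adjusted p under 0.05. Il1r1 and its 3 neighbours with a row were called higher, while Il4ra and Il21r differ in sign. Il1r1 and these neighbours each needed deficient libraries to have a row, Il18r1 the least.

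Il1r1 stands in a series of related receptor genes on chromosome 1, and its neighbours with a row were called higher as well. Within 200 kb, 5 receptor genes are annotated, of which Il1rl1 and Il18rap have no row. In each row of the count table at least 7 libraries exceed 1 CPM. Il1r1 and these neighbours had sufficient medians of 0.141 to 0.990 CPM, so each needed deficient libraries to have a row, Il18r1 the least. Their shared direction is thus partly set by this filter and is no test of the cluster. Il1r2, a decoy receptor for IL-1 whose gene ends 99.8 kb before Il1r1, ranged from 0 to 4.47 CPM (median 0.502) in sufficient and from 0.551 to 37.0 CPM (median 2.59) in deficient lymphomas. Its log2 fold change was 2.97 ± 0.77 SE (edgeR adjusted p = 0.0095), and 4 deficient libraries exceeded every sufficient one.

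Il18r1, a chain of the IL-18 receptor, ranged from 0.150 to 8.61 CPM (median 0.990) in sufficient and from 0.409 to 141 CPM (median 5.46) in deficient lymphomas. Its log2 fold change was 3.38 ± 0.97 SE (edgeR adjusted p = 0.0169). Deficient library 3 held the highest Il1r1, Il1r2 and Il18r1. Il1rl2, a chain of the IL-36 receptor 7.40 kb from Il1r1, averaged 0.439 ± 0.605 CPM against 2.53 ± 2.39 CPM, with a log2 fold change of 2.44 ± 0.79 SE (edgeR adjusted p = 0.0305). Unlike Il1r1, these 3 neighbours overlapped between the groups. Il1r2 and Il18r1 passed in each of the 23 fits without 1 library but not with limma-voom (adjusted p = 0.0827 and 0.243). Il1rl2 passed in 20 of them, with an adjusted p of 0.0683 without deficient library 1. Without sufficient libraries 9, 10 and 11, Il18r1 and Il1rl2 did not pass (edgeR adjusted p = 0.0902 and 0.0707). Leaving out sufficient library 3 gave Il1r2 a log2 fold change of 3.59, and leaving out sufficient library 5 gave Il1rl2 one of 3.23.

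Around Il10rb on chromosome 16, the interferon receptor genes Ifnar2, Ifnar1 and Ifngr2 lie within 200 kb. All 4 genes had negative log2 fold changes, and of these Ifngr2, a chain of the interferon gamma receptor, passed (-0.44 ± 0.15 SE, edgeR adjusted p = 0.0335). It missed the threshold in 7 of 23 fits without 1 library, for example without sufficient library 8 (adjusted p = 0.0704), and without sufficient libraries 9, 10 and 11 together (adjusted p = 0.0539). Of 5 interferon receptor chains in all, 1 fell, 0 rose and 4 did not pass.

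**Figure D4:**
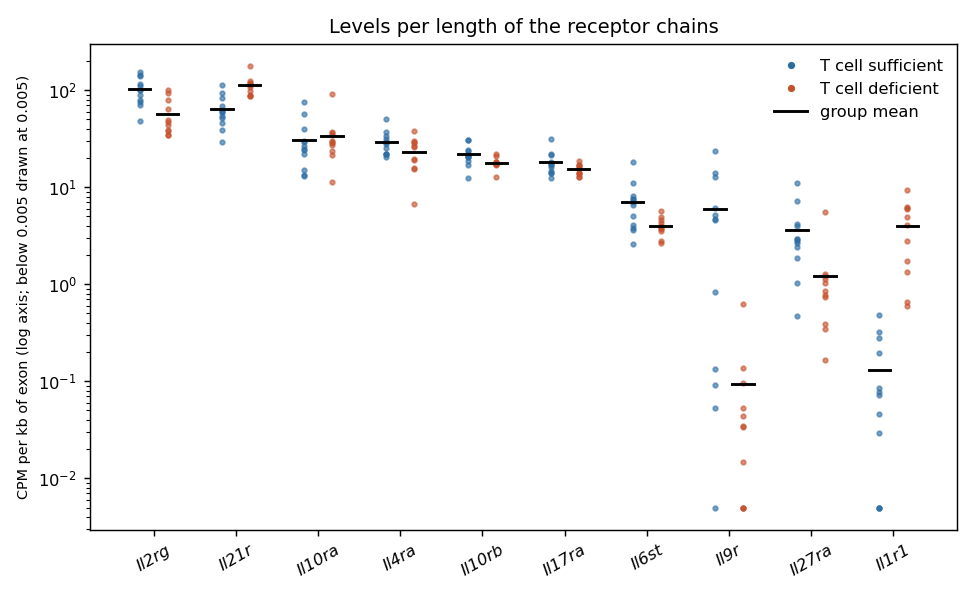
CPM per kilobase of exon for each chain and library (points, log axis) with group means (black lines), in the order of the sufficient means. Il2rg and Il21r exchange the first rank between the groups, and Il9r and Il1r1 the last.

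Per kilobase of exon, the order of mean levels in sufficient lymphomas was Il2rg, Il21r, Il10ra, Il4ra, Il10rb, Il17ra, Il6st, Il9r, Il27ra and Il1r1. The chains from Il2rg through Il10ra (30.8 ± 18.6) to Il17ra (18.0 ± 5.08) did not differ from their neighbours in rank beyond their SD. The step from Il27ra (3.63 ± 2.92) to Il1r1 (0.132 ± 0.154) exceeded the SDs. So did that from Il17ra to Il6st (7.11 ± 4.26), though not with lengths of the longest transcript (20.2 ± 5.67 against 9.10 ± 5.44), by which Il21r stood apart from the next rank instead. In deficient lymphomas Il21r led Il2rg by more than their SDs, though again not by the longest transcript (149 ± 34.0 against 80.6 ± 34.2). Ranks 3 to 7 were the same chains as in the sufficient group. Il1r1 (3.97 ± 2.82) stood level with Il6st (3.98 ± 0.868), and Il9r was last at 0.0947 ± 0.182.

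Chains that build 1 receptor were not shown to vary together among lymphomas of 1 group. In 5 pairs and both groups, 10 relations in all, none passed after adjustment. The smallest unadjusted p for Pearson's r of log2 CPM was that of Il4ra with Il2rg in deficient lymphomas, and for Spearman's rho that of Il27ra with Il6st in sufficient lymphomas. For Il4ra and Il2rg, Pearson's r was -0.60 (permutation p = 0.0439, adjusted p = 0.436) and Spearman's rho -0.54 (permutation p = 0.0930, adjusted p = 0.465, n = 11). Without the 2 libraries farthest from the median of Il4ra, r was -0.38, and centred within runs it was -0.56. Within run 2 alone r was -0.48 (n = 6), and run 1 held 5 libraries, too few. Il27ra and Il6st in sufficient lymphomas had r = 0.51 and rho = 0.55 (permutation p = 0.0872 and 0.0666, adjusted p = 0.436 and 0.465, n = 12), and r = 0.29 without the 2 farthest libraries. Centred within runs r was 0.59, within run 1 it was 0.64 (n = 7), and run 2 held 5 libraries. Il21r and Il2rg had r = -0.40 (adjusted p = 0.667) in sufficient and 0.05 (adjusted p = 0.949) in deficient lymphomas, and r was 0.28 and 0.41 without the 2 farthest libraries, so the sign in the sufficient group rests on those libraries.

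The genes most like Il1r1 across the 11 deficient lymphomas, by Pearson's r of log2 CPM centred within runs over 10899 genes, were Pgbd1 (r = 0.93), Il3ra (r = 0.93), the specific chain of the IL-3 receptor, and Cacng6 (r = 0.92). Il3ra averaged 19.9 ± 9.24 CPM there and did not pass the test between the groups (edgeR adjusted p = 0.428). Most like Il9r across the 12 sufficient lymphomas, over 10939 genes, were Srpk1 (r = 0.94), a kinase of splicing factors, Icosl (r = 0.91), the ligand of the T cell costimulator ICOS, and Wiz (r = 0.90). Icosl ranged from 0.727 to 132 CPM among them. These are the top ranks of a search over all these genes and are given as a description, without a test.

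**Figure D5:**
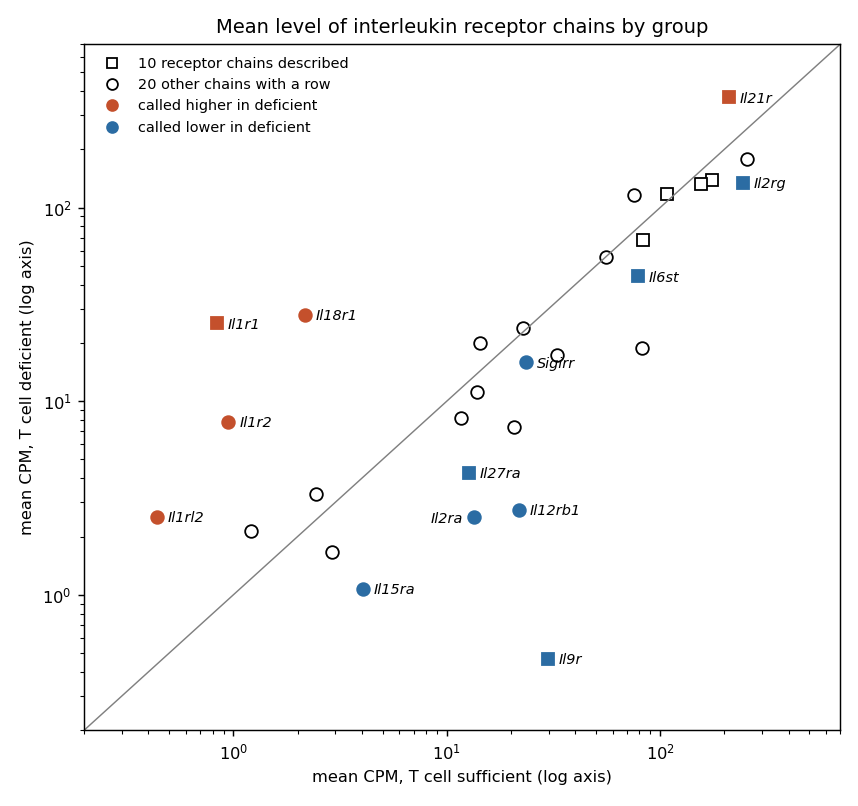
Mean CPM of the 10 chains (squares) and the 20 other interleukin receptor chains with a row (circles) in T cell sufficient (x, log axis) and T cell deficient lymphomas (y, log axis), with the line of equal means. Filled red points were called higher and filled blue points lower, and Il1r1 and Il9r lie farthest from the line.

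Among 35 other interleukin receptor chains listed, 20 had a row and were tested. Of these, 3 rose, 4 fell and 13 did not pass, with a median log2 fold change of -0.45, where 22.2% of all genes were called. The 3 that rose are the neighbours of Il1r1, whose rows needed deficient libraries, that of Il18r1 the least. Il12rb1, the chain shared by the IL-12 and IL-23 receptors, fell from 21.7 ± 12.6 CPM to 2.74 ± 4.92 CPM, a log2 fold change of -3.06 ± 0.69 SE (edgeR adjusted p = 0.00386). Its deficient median was 0.997 CPM and its maximum 16.9 CPM, and without deficient library 8 the log2 fold change was -4.18. With Xist and Y-linked levels as covariates, an alternative chosen after seeing the data, its adjusted p was 0.0514. Il15ra, which presents IL-15 to neighbouring cells, fell by 1.73 ± 0.47 SE on the log2 scale (adjusted p = 0.0122). Sigirr, an inhibitory member of the IL-1 receptor family, and Il2ra, the high-affinity chain for IL-2, also fell and were named after their values were seen (log2 fold changes -0.64 and -2.22, adjusted p = 0.0302 and 0.0391). Il2ra did not pass without sufficient library 10 (adjusted p = 0.145), one of 9 such fits in which it missed the threshold, and Sigirr missed it in 7, for example without the same library (adjusted p = 0.0630). Il2ra had a log2 fold change of -1.42 without that library and -2.82 without deficient library 6. Without sufficient libraries 9, 10 and 11, neither passed (adjusted p = 0.0983 for Il2ra and 0.0748 for Sigirr). Il1rap, the partner chain that IL-1 receptors need to signal, did not pass (13.9 ± 6.13 CPM, against 11.2 ± 5.28 CPM; adjusted p = 0.464).

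Jak1 and Jak3, the kinases of the common gamma chain, were also called lower, and whether they vary with Il2rg across libraries was not tested. Of 11 JAK and STAT genes, 3 fell, 0 rose and 8 did not pass, where 22.2% of all genes were called, 11.7% as lower. Jak3, the kinase bound by the gamma chain, fell from 145 ± 61.1 CPM to 73.7 ± 38.7 CPM (log2 fold change -1.03 ± 0.23 SE, edgeR adjusted p = 0.00431). Jak1, which binds the specific chains, fell from 401 ± 137 CPM to 236 ± 36.9 CPM (-0.77 ± 0.15 SE, adjusted p = 0.00169). Stat3 fell by 0.45 ± 0.16 SE on the log2 scale (adjusted p = 0.0452), a call kept in 7 of 23 fits without 1 library and lost without sufficient libraries 9, 10 and 11 (adjusted p = 0.106). Stat6, the factor of IL-4 signalling, did not pass (-0.27 ± 0.10 SE, adjusted p = 0.0573).

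Of 15 measured feedback inhibitors, 3 fell, 0 rose and 12 did not pass, where 22.2% of all genes were called, 11.7% as lower. Socs3, an inhibitor that STAT3 induces and that acts on gp130, fell from 20.03 ± 15.8 CPM to 2.48 ± 5.65 CPM (log2 fold change -3.33 ± 0.86 SE, edgeR adjusted p = 0.00905). Its deficient median was 0.955 CPM and its maximum 19.4 CPM, and without deficient library 7 the log2 fold change was -4.66. Ptpn6, the phosphatase SHP-1, fell by 0.70 ± 0.18 SE and Ptpn1 by 0.30 ± 0.10 SE on the log2 scale (adjusted p = 0.00901 and 0.0376), the latter called in 10 of 23 fits without 1 library and not called without sufficient libraries 9, 10 and 11 (adjusted p = 0.133). Of 13 genes listed as STAT3 targets of IL-6, IL-10 and IL-21, 1 rose, Il21r itself, 1 fell, Socs3, and 11 did not pass. Of 9 measured genes listed for IL-4 and STAT6, 3 fell, Pdcd1lg2, Ifi30 and Hvcn1, 0 rose and 6 did not pass. Across all genes tested 22.2% were called, 11.7% as lower. Both lists were chosen with earlier results known. Whether Ifi30 and Hvcn1 respond to IL-4 in these cells was not tested. Pdcd1lg2, the gene of PD-L2, stood at 45.4 ± 37.4 CPM and 2.86 ± 2.09 CPM (edgeR adjusted p = 0.000697).

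Of 22 measured adaptors and regulators of IL-1 and IL-17 signalling, 2 rose, 3 fell and 17 did not pass, with a median log2 fold change of -0.01. The share called is about the 22.2% of all genes. Tnfaip3, the NF-kappa B inhibitor A20, rose from 76.0 ± 17.7 CPM to 125 ± 46.7 CPM (log2 fold change 0.71 ± 0.17 SE, edgeR adjusted p = 0.00719). Zc3h12a, an RNase that degrades cytokine transcripts, rose by 0.68 ± 0.22 SE (adjusted p = 0.0338, named after its values were seen), and it was not called in 8 of 23 fits without 1 library or without sufficient libraries 9, 10 and 11 (adjusted p = 0.102). Irak2 and Irak4, kinases that IL-1 receptors recruit through Myd88, both fell by 0.63 (SE 0.16 and 0.18, adjusted p = 0.00738 and 0.0158), as did Sigirr. Myd88 itself did not pass (0.15 ± 0.12 SE, adjusted p = 0.391).

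No group difference of a chain was shown to depend on the run. In the interaction of group and run, 0 of 10 chains and 0 of 11020 genes passed edgeR's adjusted threshold (0% called), while 723 genes had an unadjusted p under 0.05. The nearest chain was Il21r, with an interaction of 0.68 ± 0.33 SE on the log2 scale (unadjusted p = 0.0535, adjusted p = 0.762). With run 1 fitted alone, 0% of genes and 0 chains were called, with 1811 genes at an unadjusted p under 0.05. With run 2 alone, 12.0% of genes and 3 of 10 chains were called, Il1r1 and Il21r as higher (5.48% of genes) and Il9r as lower (6.48%).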

How the data were processed

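Raw counts per gene symbol for 23 libraries were taken as deposited. The authors also deposited CPM (the count over the column total) and, from their own comparison, log2 fold changes with p-values, which are cited as theirs. The submitters' processing notes name limma and the builds mm10 and GRCm38. The sources used here do not give the aligner or the counting tool. In each row of the table at least 7 libraries exceed 1 CPM, so chains expressed in fewer were not analysed here. A repeat library of T cell sufficient lymphoma 1, from run 2, was matched to no column here. Whether the column of that lymphoma, the deepest and taken as run 1, includes it is not stated, and without it the same 6 chains were called. One column was matched to sufficient lymphoma 4 by its number.

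Counts were tested with edgeR 4.0.16 (R 4.3.3): filterByExpr (120 genes removed), TMM, robust quasi-likelihood fits with terms for run and group, adjusted over all genes. Standard errors are the log2 fold change over the root of F. Intervals, given as 95%, span 1.96 standard errors on either side, a normal approximation slightly narrower than the test implies. Log2 CPM use a prior count of 2. Exact permutation tests ran within runs, and correlations used 100000 permutations (SciPy 1.17.1). Alternatives used DESeq2 1.42.0 and limma 3.58.1. Lengths are unions of GENCODE M21 exons. The code was tested on simulated counts. The 10 chains and the 17 other gene lists were chosen with earlier results of these data known. Genes outside the chains were named as up to 4 called members of a list with the smallest p, as receptor genes within 200 kb, or as the 3 most alike, and exceptions are marked. One listed marker is not reported here.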

Additional observations from a re-analysis of the deposited data

Results flagged for a closer look

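In 40 sets of libraries (10 chains, 2 groups, 2 runs), 3 held a library far from the others on the log2 CPM scale, and chance gives about 1 in 20. All were T cell deficient libraries of run 2. Il2rg, the common gamma chain, stood at 238 CPM in library 3, where the other 5 ranged from 82.3 to 117 CPM. Il10ra, the specific chain of the IL-10 receptor, stood at 318 CPM in library 6, where the others ranged from 83.3 to 127 CPM. Il10rb stood at 83.8 CPM in library 1, where the others ranged from 63.9 to 69.0 CPM.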

How the results depend on the processing

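The calls of Il2rg, Il27ra and Il6st needed both runs, while Il1r1, Il21r and Il9r were also called in run 2 alone. With run 1 alone 0 chains and 0 genes were called in either direction. With run 2 alone 2 chains were higher (Il1r1 and Il21r) and 1 lower (Il9r), with 604 genes higher and 714 lower. At an adjusted p under 0.01, 2 chains were higher (Il1r1 and Il21r) and 2 lower (Il9r and Il2rg), with 465 genes higher and 562 lower. Without sufficient libraries 9, 10 and 11 (Xist together with Y-linked transcripts), 647 genes were higher and 821 lower. The fewer libraries or the stricter threshold of these settings are part of their construction. Leaving out each library gave 2 chains higher, 4 to 5 lower, 889 to 1340 genes higher and 1064 to 1454 lower. With the genes scaled by library totals, 1608 were higher and 1027 lower, against 1163 and 1285. DESeq2 called 28.1% of genes and limma-voom 22.8%, and each called 6 of the 10 chains. Il9r was left untested by a minimum of 10 counts in every library of a group. Xist and Y-linked levels as covariates, chosen after seeing the data, kept 2 higher and 4 lower. Among genes outside the chains, the calls lost with these covariates included Ifngr2, Il18 and Stat3 (edgeR adjusted p = 0.177, 0.113 and 0.0935). They also included Ptpn1, Il1b and Il12rb1 (edgeR adjusted p = 0.0789, 0.0611 and 0.0514).

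Il10ra had log2 fold changes of -0.10 to 0.22 without 1 library and changed sign, at -0.14 in run 2 alone, -0.10 without deficient library 6, -0.02 without deficient library 8 and -0.0028 with the replicate block. So did 3 correlations once centred within runs: Il9r with Il2rg (0.0512) and Il10ra with Il10rb (0.278) in the sufficient group, and Il27ra with Il6st (-0.0178) in the deficient group. The cause was not tested. By the longest transcript, 2 chains changed rank among sufficient lymphomas. The labels do not say whether same-numbered libraries share more than the number. Such libraries correlated at -0.246 to 0.232, with 4 of 11 pairs over 0.1, and 1 of 11 sufficient libraries correlated best with its own number. Most of these pairs lie across the 2 runs, so the correlations cannot show whether they share an origin. With the number as a block, 893 genes were higher and 938 lower, and 2 and 4 chains. Depth limits Il1r1 in the sufficient and Il9r in the deficient group, both near the floor of 3 counts.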

Other observations

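Transcripts of the ligands of these receptors varied widely in level. Of 35 interleukin and related cytokine genes listed, 10 had a row, of which 0 rose, 3 fell and 7 did not pass edgeR's test, where 10.6% and 11.7% of all genes tested were called higher and lower. The 3 that fell were Il16, at 299 ± 56.8 CPM in sufficient and 216 ± 82.5 CPM in deficient lymphomas (edgeR adjusted p = 0.0379), Il18, at 5.57 and 2.56 CPM (adjusted p = 0.0377), and Il1b, at 3.08 and 0.935 CPM (adjusted p = 0.0284). The call of Il16 held in 11, that of Il18 in 14 and that of Il1b in 21 of the 23 fits without 1 library. Without sufficient libraries 9, 10 and 11, none of the 3 passed (edgeR adjusted p = 0.0725 for Il16, 0.106 for Il18 and 0.0925 for Il1b). Il10, the ligand of the receptor encoded by Il10ra and Il10rb, averaged 29.1 ± 21.9 CPM against 11.1 ± 12.1 CPM and did not pass (adjusted p = 0.132). Ebi3, a subunit of IL-27, averaged 47.6 and 49.0 CPM in the sufficient and deficient groups (adjusted p = 0.983). Il4 averaged 1.61 and 2.97 CPM (adjusted p = 0.240). Il9, Il21, Il6 and Il17a have no row.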
